A study of Mus musculus with 12 samples.

Results

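Liver RNA of 8 mice was compared, the 4 STAM-vehicle mice with NASH (non-alcoholic steatohepatitis) and the 4 healthy mice of a series of 12, taken by the group in their labels. All 8 were C57BL/6 mice and all received vehicle, so by design the groups differed in the disease model and not in the drug. In the STAM model, male mice are injected with streptozotocin, a toxin of the insulin-producing beta cell, at 2 days of age and fed a high-fat diet from week 4. Vehicle was given by mouth from week 6 to week 9. The healthy mice are labelled WT and had neither streptozotocin nor the diet. No group had streptozotocin alone or diet alone, so the parts played by diabetes and by diet cannot be told apart here. The livers of the I-BET151 group (4 mice) enter only alternative fits. Each sample is a separate mouse.

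NASH is fat storage in hepatocytes together with cell injury and inflammation, and it can proceed to fibrosis. Hepatocytes, which make up most of the liver, synthesize fatty acids under the control of SREBP1c and ChREBP, burn them under PPAR-alpha, secrete most plasma proteins, and clear drugs and steroids through cytochrome P450 enzymes. Resident macrophages (Kupffer cells) line the sinusoids, monocytes are recruited to injured tissue, and stellate cells, which store vitamin A at rest, make collagen when activated. Whole-tissue RNA holds all of these cells together, so fewer cells of a type and less RNA per cell cannot be told apart.

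The total count on genes was 39528620 to 49485066 in healthy and 40279918 to 50378953 in STAM-vehicle libraries. Healthy libraries had a count on 21189 to 22130 genes and STAM-vehicle libraries on 22863 to 23637, without overlap. The 10 most abundant genes took 16.8% to 18.1% of the counts in healthy and 13.5% to 16.4% in STAM-vehicle livers. Mitochondrially encoded genes took 4.51% to 7.31% and 5.83% to 6.44%. Albumin, the defining product of hepatocytes, was at 28277 to 84062 CPM (counts per 1000000 of the TMM-normalized library) over the 8 livers. The first principal component of log2 CPM held 55.3% of the variance and placed healthy mice from -47.2 to -20.5 and STAM-vehicle mice from 27.9 to 53.1. Healthy mouse 1 lay nearest to the STAM-vehicle mice and STAM-vehicle mouse 3 farthest from the healthy mice. The libraries were run on several sequencing lanes and only lane 2 held both groups, with 1 mouse of each, so that no comparison within a lane can be tested.

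A large part of the liver transcriptome differed between the groups. Sequencing lanes and groups nearly coincide, so disease and lane cannot be told apart here. Of 16198 genes tested, 3879 (23.9%) passed edgeR's quasi-likelihood test (Benjamini-Hochberg adjusted p up to 0.05), 2085 (12.9%) higher and 1794 (11.1%) lower in STAM-vehicle livers. These shares are the background against which the gene groups below are read. They depend on the level of a gene: above a mean of 100 CPM, 3.27% of genes rose and 33.4% fell. Rises were larger than falls. The median size was 0.93 on the log2 scale for genes that rose and 0.41 for genes that fell, 930 genes rose by at least 1 log2 unit and 121 fell by as much, and 201 rose against 18 that fell by at least 2. Among called genes, 1794 of those higher and 1581 of those lower had no overlap between the 4 mice of each group, which held for 13.5% and 13.7% of all tested genes in the respective direction.

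The direction of change followed the level of the gene. Genes that rose were mostly rare transcripts in healthy liver, with a median of 2.27 CPM, and genes that fell were abundant, with a median of 44.7 CPM against 8.97 CPM for all genes tested. Below a mean of 1 CPM 15.4% of genes rose and 1.69% fell, between 1 and 10 CPM 19.8% and 4.30%, between 10 and 100 CPM 8.09% and 16.6%, and above 100 CPM 3.27% and 33.4%. In counts, the genes that rose took 1.96% to 2.46% of a healthy library and 4.11% to 5.11% of a STAM-vehicle library. The genes that fell took 33.6% to 34.7% and 24.6% to 27.2%.

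**Figure D1:**
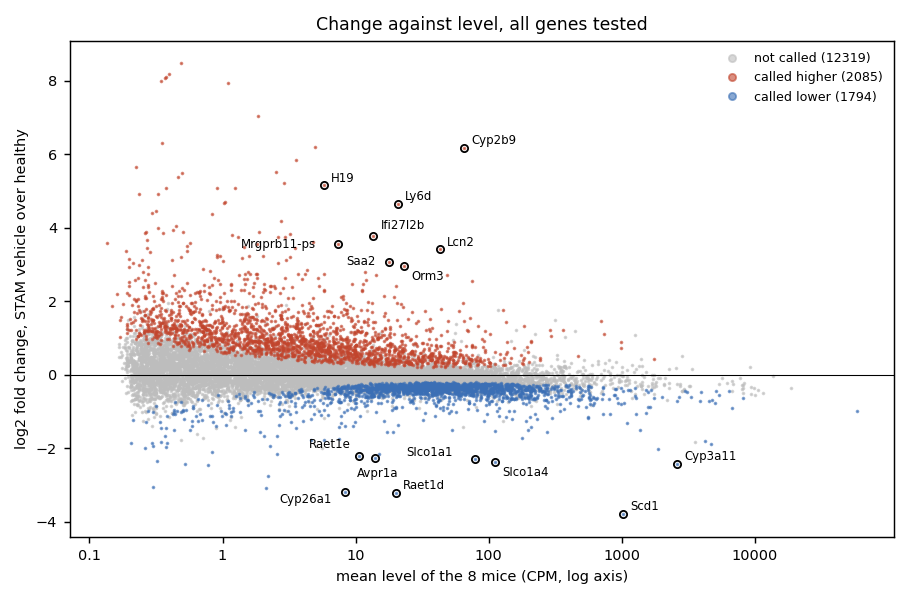
Change of each of the 16198 genes tested (log2 fold change, STAM-vehicle over healthy) against its mean level in the 8 mice (CPM, log axis), with genes called higher in red, called lower in blue and the rest in grey. The 16 genes ringed are the leading rises, among them Cyp2b9 and H19, and the leading falls, among them Scd1 and Cyp3a11. Red points lie mostly on the left at low levels and blue points on the right.

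This split rests on the scaling. TMM normalization, which sets the bulk of genes to no change, gave healthy libraries factors of 0.809 to 1.00 and STAM-vehicle libraries 1.06 to 1.17. The groups did not overlap in these factors. With library totals in place of TMM factors, an alternative added after seeing the data, the median log2 fold change of all genes moved from -0.0153 to 0.271. The share of calls that were higher moved from 53.8% to 94.6%, with 4772 genes higher and 271 lower. Falls of less than about this shift of 0.286 are therefore falls relative to the bulk of genes, and the values with library totals are given beside gene groups whose median or balance of rises and falls turned or shifted with it. In groups with rises and 0 falls, library totals gave as many rises or more. In the gene groups below, a direction in which edgeR called 0 genes had at most 2 at an unadjusted p under 0.05, at most 2 called by DESeq2 and at most 4 by limma-voom. Fitted with the I-BET151 mice, the healthy and STAM-vehicle groups gave 1195 calls, 963 higher and 232 lower.

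Among genes with a mean of at least 10 CPM in the higher group, the largest rises included a P450 enzyme, fetal genes and secreted proteins of injury. Cyp2b9, a steroid and drug hydroxylase that is normally made in female mouse liver, was measured at 0.423, 6.45, 0.0553 and 0.194 CPM in healthy mice 1 to 4 and 65.4, 35.1, 355 and 57.1 CPM in STAM-vehicle mice 1 to 4. All STAM-vehicle mice lay above all healthy mice, with mouse 3 the highest, and the level rose 72.3-fold by the fit (log2 fold change 6.18, SE 1.18, adjusted p = 0.00576). The imprinted long non-coding RNA H19 (ENSMUSG00000000031, chromosome 7 of GRCm38 from 142575529 to 142578143), expressed in fetal liver and silenced after birth, was at 0.242, 0.384, 0.359 and 0.276 CPM in healthy mice 1 to 4 and 6.85, 15, 10.5 and 12.7 CPM in STAM-vehicle mice 1 to 4. The groups were far apart and each was tight, a rise of 35.8-fold (log2 fold change 5.16, SE 0.29, adjusted p = 1.29e-05). Ly6d, a surface protein of the Ly6 family, was at 1.21, 1.74, 2.07 and 1.38 CPM in healthy mice 1 to 4 and 32.8, 20.3, 80.7 and 26.7 CPM in STAM-vehicle mice 1 to 4. No mice overlapped (log2 fold change 4.66, SE 0.45, adjusted p = 0.000292).

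Lcn2 encodes lipocalin-2, which binds bacterial siderophores and is made by injured hepatocytes and neutrophils. It was measured at 9.73, 6.34, 5.67 and 7.54 CPM in healthy mice 1 to 4 and 39.2, 57, 176 and 42.5 CPM in STAM-vehicle mice 1 to 4. Every STAM-vehicle mouse was above every healthy mouse and mouse 3 was the highest by far (log2 fold change 3.42, SE 0.48, adjusted p = 0.00166). The serum amyloid and orosomucoid genes Saa2 and Orm3 rose from 3.82 ± 1.39 to 32 ± 16.5 CPM and from 5.25 ± 2.0 to 41.2 ± 4.89 CPM (SD, n = 4 mice a group). Their fold changes were 3.07 (SE 0.39, adjusted p = 0.000997) and 2.97 (SE 0.26, adjusted p = 0.00017) on the log2 scale. Ifi27l2b, an interferon-related gene of the Ifi27 family, lay at 1.69 to 1.99 CPM in healthy and 17.5 to 40.0 CPM in STAM-vehicle livers (log2 fold change 3.78, adjusted p = 4.20e-05), and the pseudogene Mrgprb11-ps at 0.995 to 1.49 CPM in healthy and 9.77 to 17.4 CPM in STAM-vehicle livers (log2 fold change 3.55, adjusted p = 1.34e-05). The authors counted uniquely mapped reads, so reads shared between near-identical copies are lost or split, and the levels of Cyp2b, Cyp2a, Cyp2c, Cyp3a, Saa, Orm, Raet1, Oas1, Sult2a and Mup genes are uncertain for this reason.

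The largest falls were in a desaturase, in retinoid and drug clearance and in hepatic uptake carriers. Scd1, which introduces the double bond of oleate and palmitoleate, stood at 1642, 1778, 2005 and 2167 CPM in healthy mice 1 to 4 and 82.4, 184, 231 and 51.8 CPM in STAM-vehicle mice 1 to 4. Even the highest STAM-vehicle mouse was several-fold below the lowest healthy mouse (log2 fold change -3.79, adjusted p = 0.000608). Cyp26a1, the main enzyme that degrades retinoic acid, was measured at 15.4, 15.7, 10.8 and 18 CPM in healthy mice 1 to 4 and 1.76, 2.21, 0.57 and 1.96 CPM in STAM-vehicle mice 1 to 4. The groups did not overlap (log2 fold change -3.2, SE 0.33, adjusted p = 0.000374). Cyp3a11, the principal murine counterpart of the human drug-metabolizing enzyme CYP3A4, was at 3544, 3938, 4968 and 5128 CPM in healthy mice 1 to 4 and 1002, 769.6, 787 and 702 CPM in STAM-vehicle mice 1 to 4. All STAM-vehicle mice were low and close together, and the fall was 5.39-fold (log2 fold change -2.43, SE 0.17, adjusted p = 4.97e-05).

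The organic anion carriers Slco1a4 and Slco1a1 fell together in direction but not in pattern. Slco1a4 was at 179.6, 204, 172 and 197 CPM in healthy mice 1 to 4 and 41.4, 41, 33.1 and 29.6 CPM in STAM-vehicle mice 1 to 4. Slco1a1, a male-biased carrier, was at 67.7, 155, 176 and 126 CPM in healthy mice 1 to 4 and 32.9, 34, 4.72 and 35.1 CPM in STAM-vehicle mice 1 to 4. STAM-vehicle mouse 3 was far below the other STAM-vehicle mice for Slco1a1, whereas the 4 STAM-vehicle mice stayed closer for Slco1a4 (log2 fold change -2.3, SE 0.52, against -2.37, SE 0.12; adjusted p = 0.0116 and 1.02e-05). The vasopressin receptor Avpr1a, which couples to glycogen breakdown in hepatocytes, lay at 19.2 to 26.2 CPM in healthy and 2.98 to 7.45 CPM in STAM-vehicle livers (log2 fold change -2.28, adjusted p = 0.000505). Raet1d and Raet1e, ligands of the NK cell receptor NKG2D, lay at 29.5 to 42.7 CPM in healthy and 3.22 to 5.59 CPM in STAM-vehicle livers and at 14.2 to 19.6 CPM in healthy and 2.86 to 4.4 CPM in STAM-vehicle livers (log2 fold changes -3.22 and -2.2, adjusted p = 1.34e-05 and 4.54e-05). All 16 of these leading genes were called with any single mouse left out. They were chosen as called genes without overlap and with the largest changes, so this was likely in advance. Among all calls it held for 1218 of 2085 genes that rose and 766 of 1794 that fell.

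**Figure D2:**
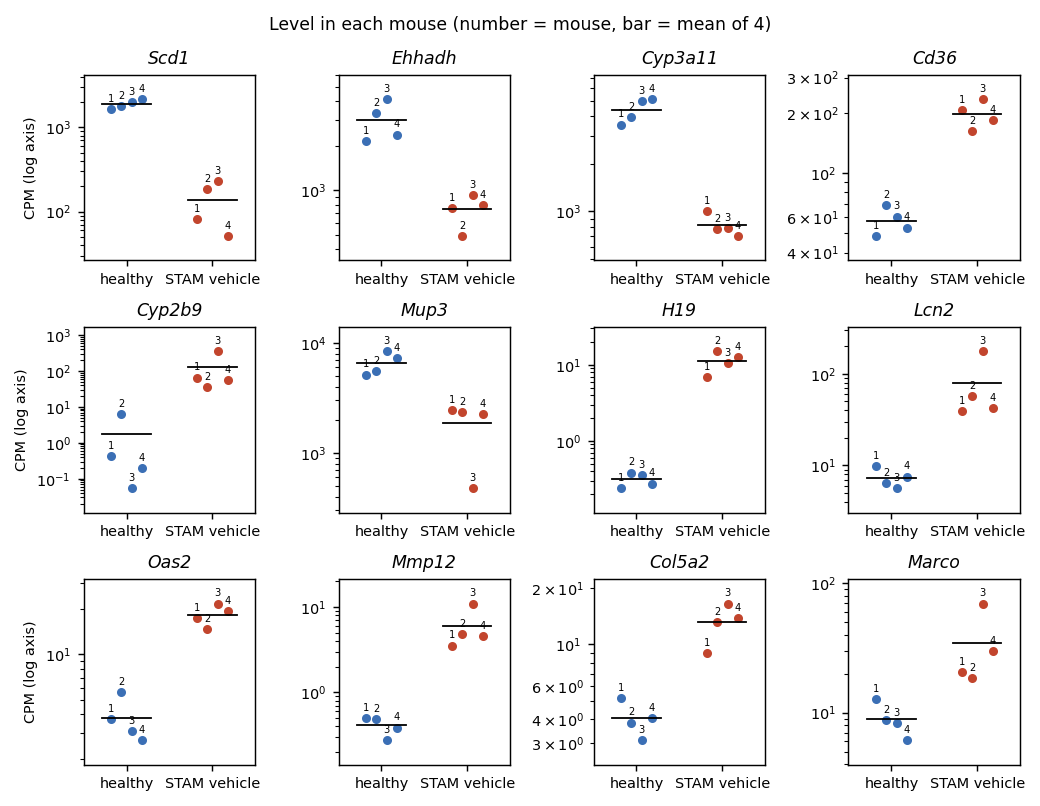
Level of 12 genes in each mouse (CPM, log axis), with healthy mice in blue, STAM-vehicle mice in red, the mouse number above each point and a bar at the mean of 4 mice. In all 12 panels the red points lie wholly on one side of the blue points, and STAM-vehicle mouse 3 stands apart for Mup3 (479 CPM), Lcn2 (176 CPM) and Marco (69.7 CPM).

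Genes of fatty acid synthesis split. Of 22 tested, 2 rose and 7 fell (median log2 fold change -0.16 against -0.0153 for all genes), and with library totals 5 rose and 2 fell, median 0.13. The 2 that rose are regulators. Srebf1, the SREBP1 transcription factor that switches on lipogenesis, lay at 37.5 to 58.6 CPM in healthy and 51.6 to 74.8 CPM in STAM-vehicle livers (log2 fold change 0.63, adjusted p = 0.0191). Thrsp, a lipogenic regulator, lay at 20.3 to 35.8 CPM in healthy and 55.9 to 133 CPM in STAM-vehicle livers (log2 fold change 1.74, adjusted p = 0.0027). Those that fell include genes of desaturation, elongation, citrate export and NADPH supply. Elovl5, an elongase of polyunsaturated fatty acids, was at 778, 866, 815 and 631 CPM in healthy mice 1 to 4 and 303, 249.8, 415 and 397 CPM in STAM-vehicle mice 1 to 4 (log2 fold change -1.18, adjusted p = 0.00181), without overlap. Fads1, the delta-5 desaturase, and Slc25a1, the mitochondrial citrate carrier, fell by 0.55 and 0.49 on the log2 scale, and Me1, the malic enzyme that supplies NADPH, by 0.35. Fatty acid synthase itself, Fasn, lay at 179 to 200.5 CPM in healthy and 172 to 314 CPM in STAM-vehicle livers with overlapping groups (log2 fold change 0.29, adjusted p = 0.216). The number of falls was 4 without healthy mouse 3. Srebf1 lost its call without STAM-vehicle mouse 4 (adjusted p = 0.052) and Me1 without healthy mice 2, 3 and 4 and STAM-vehicle mice 1, 2 and 4 (adjusted p up to 0.141).

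Fatty acid oxidation fell in most of the genes listed. Of 34 genes tested, 25 fell and 0 rose, where 11.1% of all genes fell, with a median of -0.58; with library totals 1 rose and 11 fell, median -0.28. Ehhadh, the peroxisomal bifunctional enzyme, was measured at 2148, 3313, 4143 and 2384 CPM in healthy mice 1 to 4 and 756, 492, 932 and 797 CPM in STAM-vehicle mice 1 to 4. Even the lowest healthy mouse was above all STAM-vehicle mice (log2 fold change -2.01, SE 0.25, adjusted p = 0.000942). Cpt1a, the gatekeeper of mitochondrial fatty acid entry, was at 960.0, 1185, 1190 and 887 CPM in healthy mice 1 to 4 and 672, 649, 791 and 769.8 CPM in STAM-vehicle mice 1 to 4 (log2 fold change -0.55, SE 0.13, adjusted p = 0.0138). PPAR-alpha itself fell (Ppara, 121 to 187 CPM in healthy and 100.0 to 104 CPM in STAM-vehicle livers; log2 fold change -0.59, adjusted p = 0.00754), as did its targets Acot1 (-1.53), Acaa1b (-1.3) and Cyp4a14 (-0.91), which cover acyl-CoA hydrolysis, thiolysis and omega-hydroxylation. The list's 9 members that did not pass include Fgf21, a PPAR-alpha and stress-responsive hormone, at 11.2, 12.7, 8.68 and 5.47 CPM in healthy mice 1 to 4 and 18.6, 8.82, 44.6 and 11.8 CPM in STAM-vehicle mice 1 to 4. Its groups overlapped (log2 fold change 1.14, adjusted p = 0.0966).

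Lipid uptake and storage genes moved in both directions, 7 up and 6 down of 26 (median 0.13; with library totals 15 rose and 3 fell, median 0.42). The fatty acid transporter Cd36 was at 48.6, 69, 60.6 and 53.4 CPM in healthy mice 1 to 4 and 206, 162, 234 and 184 CPM in STAM-vehicle mice 1 to 4. It rose 3.39-fold with no overlap (log2 fold change 1.76, SE 0.14, adjusted p = 9.75e-05). Cidea, a lipid droplet protein of brown fat that is scarce in lean liver, was at 0.0604, 0.0512, 0.0829 and 0.111 CPM in healthy mice 1 to 4 and 2.82, 0.504, 2.54 and 2.02 CPM in STAM-vehicle mice 1 to 4 (log2 fold change 4.66, SE 0.61, adjusted p = 0.00115). Mogat1, a monoacylglycerol acyltransferase, and Lpl, lipoprotein lipase, also rose (2.42 and 1.41; adjusted p = 0.000554 and 0.00298). The members that fell include the abundant intracellular fatty acid binder Fabp1 (1523 to 2777 CPM in healthy and 519.9 to 954 CPM in STAM-vehicle livers; log2 fold change -1.52, adjusted p = 0.0027), G0s2, an inhibitor of the lipase ATGL (-1.12), the monoglyceride lipase Mgll (-0.89) and the very long chain acyl-CoA synthetase Slc27a2 (-0.59). Plin2, the main droplet coat protein of hepatocytes, was at 526 to 713 CPM in healthy and 359 to 753 CPM in STAM-vehicle livers (log2 fold change -0.32, adjusted p = 0.271).

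In cholesterol synthesis, 4 of 20 genes rose and 2 fell (median 0.06; with library totals 7 rose and 1 fell, median 0.35). The rises were in Mvd and Fdps, of the steps up to farnesyl diphosphate, and in the sterol ring enzymes Lss (0.52) and Msmo1 (0.55). Mvd was at 3.54 to 5.14 CPM in healthy and 8.09 to 13.4 CPM in STAM-vehicle livers (log2 fold change 1.27, adjusted p = 0.00168). Fdps was at 4.48 to 5.24 CPM in healthy and 6.91 to 14.2 CPM in STAM-vehicle livers (log2 fold change 1.05, adjusted p = 0.00506). The sterol reductase Tm7sf2 and the isomerase Ebp fell (-1.5 and -0.49). Of the 11 genes of SREBP2 control and uptake, edgeR and DESeq2 called 0 and 2 had an unadjusted p under 0.05 (median -0.21, or 0.08 with library totals). Falls numbered 4 without STAM-vehicle mouse 4. Msmo1 lost its call without healthy mice 1, 2, 3 and 4 and STAM-vehicle mice 1, 2 and 4 (adjusted p up to 0.0838).

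Of 24 bile acid genes, 3 rose and 5 fell (median -0.17; with library totals 4 rose and 4 fell, median 0.12). Cyp7a1, the rate-limiting enzyme of bile acid synthesis, was at 173, 149.6, 105 and 149.6 CPM in healthy mice 1 to 4 and 220.1, 331, 160.1 and 363 CPM in STAM-vehicle mice 1 to 4 (log2 fold change 0.89, adjusted p = 0.0251). The highest healthy mouse overlapped the STAM-vehicle mice. Cyp8b1, which directs synthesis to cholic acid, fell (796 to 1241 CPM in healthy and 263 to 578 CPM in STAM-vehicle livers; log2 fold change -1.07, adjusted p = 0.0104), and Nr0b2, the repressor SHP, fell by 1.24 on the log2 scale (adjusted p = 0.00333). The export pump Abcc4 rose by 0.61. Rises numbered 0 without healthy mice 2 and 3 and 1 without healthy mouse 4 and STAM-vehicle mice 1 and 3. Cyp7a1 lost its call without healthy mice 2, 3 and 4 and STAM-vehicle mice 2 and 4 (adjusted p up to 0.0694) and Abcc4 without healthy mice 2, 3 and 4 and STAM-vehicle mice 1 and 3 (adjusted p up to 0.0709).

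Genes of glucose metabolism and insulin response were mixed, 4 up and 5 down of 28 (median -0.15; with library totals 10 rose and 3 fell, median 0.12). Igfbp1, which insulin represses, was at 206, 229.6, 349 and 93.2 CPM in healthy mice 1 to 4 and 509.9, 286, 606 and 633 CPM in STAM-vehicle mice 1 to 4 (log2 fold change 1.21, adjusted p = 0.0333). STAM-vehicle mice were higher on average and the groups overlapped. Pck1, the gluconeogenic carboxykinase, which insulin also represses, fell (4635 to 6694 CPM in healthy and 2853 to 4537 CPM in STAM-vehicle livers; log2 fold change -0.73, adjusted p = 0.020). The other rises were in Pklr, liver pyruvate kinase (0.69), Pfkfb3, a kinase that sets fructose bisphosphate (0.60), and Tkfc, which phosphorylates glyceraldehyde from fructose (0.50). Ppp1r3c, a glycogen-targeting subunit (-1.05), Gpd1, glycerol-phosphate dehydrogenase (-0.60), and the insulin receptor substrate Irs1 (-0.57) fell. For rises, the number was 2 without STAM-vehicle mouse 1. Igfbp1 lost its call without healthy mouse 2 and STAM-vehicle mice 1, 3 and 4 (adjusted p up to 0.0834), Pck1 without healthy mice 2 and 3 and STAM-vehicle mouse 2 (adjusted p up to 0.0604) and Tkfc without healthy mouse 4 and STAM-vehicle mice 1 and 2 (adjusted p up to 0.0682).

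In the growth hormone and IGF axis, 2 of 13 genes rose and 4 fell (with library totals 2 rose and 4 fell, median 0.14). The growth hormone receptor Ghr (-0.67), Igf1 (249 to 414 CPM in healthy and 173 to 239.9 CPM in STAM-vehicle livers; log2 fold change -0.75, adjusted p = 0.00938), the carrier subunit Igfals (-0.91) and the repressor Bcl6 (-0.87) fell. Cish, a feedback inhibitor that growth hormone induces, rose (2.79 to 13.6 CPM in healthy and 11.1 to 25 CPM in STAM-vehicle livers; log2 fold change 1.72, adjusted p = 0.022), as did Igfbp1. Cish lost its call without healthy mouse 4 (adjusted p = 0.0578).

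The pattern of growth hormone release sets sexual dimorphism of the mouse liver, and some sex-biased genes differed between the groups. The study describes the injected mice as male and does not state the sex of the healthy mice. Of 22 male-biased genes, 5 fell and 0 rose (median -0.62; with library totals 2 rose and 4 fell, median -0.31), and without STAM-vehicle mouse 3, 2 rose, 5 fell and the median was -0.41. Hsd3b5, a steroid dehydrogenase of male liver, was at 1.19, 1.74, 4.75 and 7.52 CPM in healthy mice 1 to 4 and 0.294, 0.702, 0.0184 and 0.767 CPM in STAM-vehicle mice 1 to 4 (log2 fold change -3.07, adjusted p = 0.0152). The major urinary protein Mup3 was at 5156, 5552, 8402 and 7238 CPM in healthy mice 1 to 4 and 2450, 2365, 479 and 2251 CPM in STAM-vehicle mice 1 to 4 (log2 fold change -1.8, adjusted p = 0.0137). Mup7, at 1579 to 10430 CPM in healthy and 145 to 2423 CPM in STAM-vehicle livers, and Mup1, at 370.4 to 1404 CPM in healthy and 779.5 to 2487 CPM in STAM-vehicle livers, did not pass (adjusted p = 0.0976 and 0.0951) and their log2 fold changes of -1.84 and 1.07 had opposite signs. Serpina1e, an alpha-1-antitrypsin copy of male liver, fell by 1.89 on the log2 scale.

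Of 25 female-biased genes, 8 rose and 6 fell (median 0.21; with library totals 11 rose and 5 fell, median 0.52). Besides Cyp2b9, Cyp2b13 was at 0, 0.0512, 0.0553 and 0 CPM in healthy mice 1 to 4 and 2.03, 1.13, 9.63 and 1.84 CPM in STAM-vehicle mice 1 to 4, where a healthy mouse had at most 2 reads. Cyp2a4, a testosterone hydroxylase, was at 16.4, 25.8, 17.6 and 26.8 CPM in healthy mice 1 to 4 and 118, 75, 228 and 90.4 CPM in STAM-vehicle mice 1 to 4 (log2 fold change 2.56, SE 0.33, adjusted p = 0.00115). The STAM-vehicle mice were all above the healthy mice. The 6 that fell include Cyp3a and Cyp2c members, Cyp3a41b (-1.77), Cyp3a44 (-1.68), Cyp2c40 (-1.56) and Cyp2c69 (-1.4), so the female-biased set did not move as a block. Rises numbered 5 without healthy mice 3 and 4 and STAM-vehicle mouse 3.

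The P450 families 1 to 3, which oxidize drugs, steroids and toxins, changed in 23 of 38 genes, 7 up and 16 down (median -0.38; with library totals 8 rose and 11 fell, median -0.11). The rises were in the Cyp2a and Cyp2b genes, including Cyp2b10, the standard target of the xenobiotic receptor CAR (2.65 to 5.13 CPM in healthy and 5.0 to 23.1 CPM in STAM-vehicle livers; log2 fold change 1.86, adjusted p = 0.0135), and in 1 Cyp2c gene. Among the falls, Cyp2c29, a CAR target that oxidizes arachidonate, lay at 354 to 504 CPM in healthy and 104 to 165 CPM in STAM-vehicle livers (log2 fold change -1.56, adjusted p = 0.000344), and Cyp1a2, of pericentral hepatocytes, fell by 0.99 on the log2 scale. Cyp2e1, which metabolizes ethanol and produces oxidants, was at 8294 to 10664 CPM in healthy and 4597 to 8552 CPM in STAM-vehicle livers (log2 fold change -0.36, adjusted p = 0.209).

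Conjugating enzymes split as well, 6 up and 5 down of 28 (median 0.16; with library totals 13 rose and 2 fell, median 0.46). Sult1e1, which inactivates estrogens by sulfation, was at 0.443, 0.435, 0.608 and 0.774 CPM in healthy mice 1 to 4 and 5.69, 8.35, 1.25 and 3.21 CPM in STAM-vehicle mice 1 to 4 (log2 fold change 3.04, SE 0.53, adjusted p = 0.00386). Every STAM-vehicle mouse exceeded every healthy mouse. The glutathione transferases Gsta1 and Gstm3 rose (2.05 to 4.7 CPM in healthy and 7.47 to 19.6 CPM in STAM-vehicle livers, log2 fold change 2.05; 11.7 to 13.2 CPM in healthy and 25.2 to 57.4 CPM in STAM-vehicle livers, log2 fold change 1.71), as did Sult2a7 (2.63), while Sult2a8 (-0.98), Gstm6 (-0.70), Gstm7 (-0.56) and Gstt1 (-0.42) fell. Gstm1, a mu-class transferase, was at 776 to 812 CPM in healthy and 807 to 1248 CPM in STAM-vehicle livers (log2 fold change 0.35, adjusted p = 0.0824). The number of falls was 3 without healthy mouse 4. Gstt1 lost its call without healthy mouse 4 (adjusted p = 0.0564).

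Falls lay among genes of amino acid breakdown and the urea cycle, and rises among genes of amino acid synthesis. Of 34 genes of the urea cycle and amino acid use, 11 fell and 3 rose (median -0.33; with library totals 4 rose and 4 fell, median -0.04). The falls were 32.4% of this list, near the 33.4% of all genes tested above a mean of 100 CPM. The 3 rises were all synthetic enzymes. Psat1, of serine synthesis, was at 0.383, 0.384, 0.304 and 0.47 CPM in healthy mice 1 to 4 and 2.42, 1.64, 7.72 and 2.72 CPM in STAM-vehicle mice 1 to 4 (log2 fold change 3.23, SE 0.50, adjusted p = 0.00239). Asns, asparagine synthetase, was at 2.21, 1.79, 4.78 and 2.54 CPM in healthy mice 1 to 4 and 7.05, 8.03, 9.27 and 13.2 CPM in STAM-vehicle mice 1 to 4 (log2 fold change 1.73, SE 0.30, adjusted p = 0.00365). In both, the groups were apart. Psph, the last step of serine synthesis, rose by 0.51. Agxt, which detoxifies glyoxylate, was at 219 to 285 CPM in healthy and 91.7 to 136 CPM in STAM-vehicle livers (log2 fold change -1.24, adjusted p = 0.00046), and Sdsl (-0.89), Hal (-0.81) and Amdhd1 (-0.66), which degrade serine and histidine, fell. Cps1, the entry enzyme of the urea cycle, was at 6682 to 7899 CPM in healthy and 4527 to 6925 CPM in STAM-vehicle livers (log2 fold change -0.25, adjusted p = 0.294; 0.04 with library totals). Falls numbered 7 without healthy mouse 4. Psph lost its call without healthy mice 1, 2, 3 and 4 and STAM-vehicle mice 2, 3 and 4 (adjusted p up to 0.117).

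Among 20 pericentral genes, which Wnt signalling keeps on around the central vein, 2 rose and 5 fell (with library totals 5 rose and 4 fell, median 0.10). Oat and Lgr5 fell (-0.77 and -0.76), Slc13a3 and the ammonium carrier Rhbg rose (1.6 and 0.80), and glutamine synthetase, Glul, the classical marker, was at 922 to 1135 CPM in healthy and 1063 to 1313 CPM in STAM-vehicle livers (log2 fold change 0.14, adjusted p = 0.399). Of 16 retinoid genes, 5 fell (with library totals 2 rose and 2 fell, median 0.09), with Cyp26a1 far beyond the others. Rdh11 and Dhrs3, which interconvert retinal and retinol, fell by 0.61 and 0.49 on the log2 scale, and Lrat, which stores retinol as ester in stellate cells, by 0.47. Of 17 iron genes 3 fell (with library totals 4 rose and 0 fell, median 0.17), namely Bmp2 (-0.72), a bone morphogenetic protein that induces hepcidin, transferrin, Trf (-0.48), and its receptor Tfr2 (-0.35). Hepcidin, Hamp, was at 202, 342, 136 and 146 CPM in healthy mice 1 to 4 and 154, 505, 9.74 and 113 CPM in STAM-vehicle mice 1 to 4. STAM-vehicle mouse 3 was the lowest and mouse 2 the highest of all 8, so that the groups overlapped (log2 fold change -0.08, adjusted p = 0.954; 0.19 with library totals). Falls of retinoid genes numbered 3 without healthy mice 2, 3 and 4 and STAM-vehicle mice 2 and 4. For falls of iron genes, the number was 0 without healthy mouse 2 and 1 without healthy mice 3 and 4 and STAM-vehicle mouse 3. Lrat lost its call without healthy mice 2, 3 and 4 and STAM-vehicle mice 1, 2 and 4 (adjusted p up to 0.128), Bmp2 without healthy mouse 2 and STAM-vehicle mice 3 and 4 (adjusted p up to 0.0563), Trf without healthy mice 2, 3 and 4 and STAM-vehicle mouse 2 (adjusted p up to 0.0648) and Tfr2 without healthy mice 2, 3 and 4 and STAM-vehicle mice 1 and 3 (adjusted p up to 0.0873).

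Several plasma proteins made by hepatocytes fell relative to the bulk of genes. Of 19 hepatocyte identity genes, 7 fell and 0 rose (with library totals 3 rose and 2 fell, median 0.04). The falls were 36.8% of this list, near the 33.4% of all genes tested above a mean of 100 CPM. Albumin, Alb, was at 70726, 82308, 84062 and 73141 CPM in healthy mice 1 to 4 and 35777, 28277, 52276 and 40173 CPM in STAM-vehicle mice 1 to 4. Every STAM-vehicle mouse was below every healthy mouse (log2 fold change -0.99, SE 0.22, adjusted p = 0.012). Transthyretin, Ttr (-0.72), apolipoprotein A-I, Apoa1 (-0.64), and the alpha-1-antitrypsin gene Serpina1a (-0.55) fell too. Hnf4a, the master regulator of hepatocyte genes, was at 966, 1001, 1143 and 914 CPM in healthy mice 1 to 4 and 1022, 1033, 782 and 1097 CPM in STAM-vehicle mice 1 to 4, and its groups overlapped (log2 fold change -0.03, adjusted p = 0.878). Falls numbered 4 without healthy mice 2, 3 and 4. Apoa1 lost its call without healthy mouse 3 and STAM-vehicle mouse 2 (adjusted p up to 0.0555) and Serpina1a without healthy mice 1, 2, 3 and 4 and STAM-vehicle mice 1 and 3 (adjusted p up to 0.122).

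Of 21 apolipoprotein and lipoprotein genes, 11 fell and 1 rose (median -0.40; with library totals 1 rose and 2 fell, median -0.11). Apob, the core protein of very low density lipoprotein, was at 3402, 6908, 7608 and 5561 CPM in healthy mice 1 to 4 and 4182, 3386, 3750 and 3205 CPM in STAM-vehicle mice 1 to 4, with overlap (log2 fold change -0.69, adjusted p = 0.0499). Hepatic lipase, Lipc (-0.74), and Apom, which carries sphingosine phosphate (-0.71), fell. In coagulation and fibrinolysis, 7 of 20 genes fell and 2 rose (with library totals 4 rose and 1 fell, median 0.01). The falls were 35% of this list, near the 33.4% of all genes tested above a mean of 100 CPM. F11 (-0.78), heparin cofactor Serpind1 (-0.58), antithrombin Serpinc1 (-0.47), protein C, Proc (-0.43), and prothrombin, F2 (1299 to 1563 CPM in healthy and 960.1 to 1158 CPM in STAM-vehicle livers; log2 fold change -0.36, adjusted p = 0.036), fell. Plat, tissue plasminogen activator, rose (1.66). The number of falls of lipoprotein genes was 4 without healthy mouse 2, 3 without healthy mouse 3 and 7 without healthy mouse 4 and STAM-vehicle mice 1 and 3. Falls of coagulation genes numbered 3 without healthy mice 2, 3 and 4 and STAM-vehicle mice 1 and 2 and 4 without STAM-vehicle mouse 3. Apob lost its call without healthy mice 2, 3 and 4 and STAM-vehicle mice 1, 2, 3 and 4 (adjusted p up to 0.142), F11 without healthy mice 2, 3 and 4 and STAM-vehicle mice 1, 2 and 3 (adjusted p up to 0.0962) and F2 without healthy mice 2, 3 and 4 and STAM-vehicle mice 1, 2 and 4 (adjusted p up to 0.104).

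Acute phase proteins, which hepatocytes secrete under IL-6 and IL-1, rose in 10 of 27 genes and fell in 1 (median 0.45). With library totals 16 rose and 0 fell, median 0.74. Saa1 was at 10.9, 5.45, 20.7 and 14.6 CPM in healthy mice 1 to 4 and 39.7, 149.6, 93 and 54.1 CPM in STAM-vehicle mice 1 to 4. No healthy mouse reached the lowest STAM-vehicle mouse (log2 fold change 2.71, SE 0.46, adjusted p = 0.00358). Crp, C-reactive protein, which responds little in mice, was the member that fell (268 to 342 CPM in healthy and 219 to 254 CPM in STAM-vehicle livers; log2 fold change -0.41, adjusted p = 0.0156). In complement, 8 of 27 genes rose and 3 fell (median 0.01; with library totals 12 rose and 1 fell, median 0.32). Those that rose are mainly of myeloid cells: the anaphylatoxin receptors C5ar1 (1.64) and C3ar1 (1.12) and C1qb of macrophages (0.87). Cfd, factor D or adipsin, was at 0.101, 0, 0.304 and 0.0276 CPM in healthy mice 1 to 4 and 7.8, 0.90, 4.16 and 7.04 CPM in STAM-vehicle mice 1 to 4 (log2 fold change 5.51, adjusted p = 0.00215). Those that fell are hepatocyte products, C8g (-0.65), Cfb (-0.58) and Mbl1 (-0.48), and C3 was at 6920 to 8952 CPM in healthy and 5373 to 8656 CPM in STAM-vehicle livers (log2 fold change -0.08, adjusted p = 0.779; 0.22 with library totals). Acute phase rises numbered 6 without healthy mice 2 and 4 and STAM-vehicle mice 3 and 4. For complement rises, the number was 5 without healthy mouse 2 and STAM-vehicle mice 3 and 4 and 4 without healthy mouse 4. Crp lost its call without healthy mouse 2 (adjusted p = 0.0519).

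**Figure D3:**
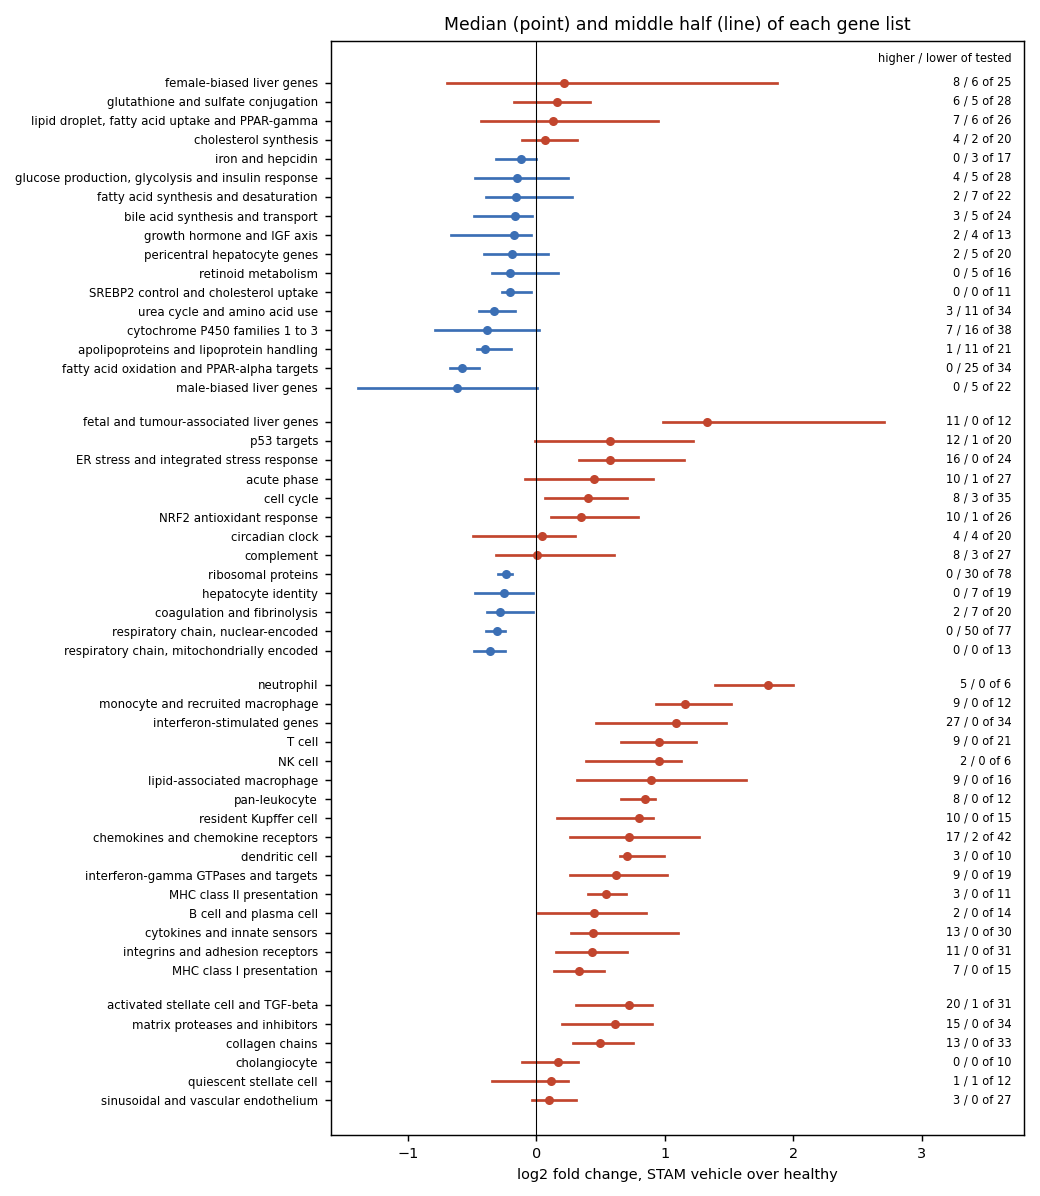
Log2 fold change (STAM-vehicle over healthy, x axis) of each gene list, as its median (point) and the range from the lower to the upper quartile of its tested genes (line), red for medians above 0 and blue for those below, with the number of genes that rose and fell of those tested on the right. Hepatocyte metabolism lists are at the top, stress and plasma protein lists next, then immune lists and matrix and other cell lists. Medians of immune lists lie right of 0, with 27 of 34 interferon-stimulated genes higher, and 25 of 34 fatty acid oxidation genes were lower.

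Of 24 genes of ER stress and the integrated stress response, 16 rose and 0 fell (median 0.57). Atf3, a transcription factor of the response, was at 1.05, 1.38, 0.968 and 0.47 CPM in healthy mice 1 to 4 and 4.66, 4.46, 10.5 and 6.21 CPM in STAM-vehicle mice 1 to 4 (log2 fold change 2.73, SE 0.35, adjusted p = 0.00105). Nupr1, a stress-induced chromatin protein, was at 1.19, 0.844, 0.746 and 0.884 CPM in healthy mice 1 to 4 and 4.93, 2.05, 8.71 and 3.29 CPM in STAM-vehicle mice 1 to 4 (log2 fold change 2.36, SE 0.41, adjusted p = 0.00389). The groups did not overlap in either. Atf4, the central factor of the integrated stress response, rose by 0.42 (81.4 to 88.5 CPM in healthy and 105 to 120.3 CPM in STAM-vehicle livers; adjusted p = 0.00463), its target Chac1, which degrades glutathione, by 1.73, and Ddit3, the pro-apoptotic factor CHOP, by 0.53 (9.97 to 11.7 CPM in healthy and 12.6 to 20.8 CPM in STAM-vehicle livers; adjusted p = 0.0297). The ER chaperone Hspa5 was at 501 to 818 CPM in healthy and 889.8 to 928 CPM in STAM-vehicle livers and did not pass (log2 fold change 0.40, adjusted p = 0.0612), although its groups did not overlap. Ddit3 lost its call without healthy mice 2, 3 and 4 (adjusted p up to 0.0698).

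Of 26 genes of the NRF2 response, which counters oxidants, 10 rose and 1 fell (median 0.35). With library totals 21 rose and 0 fell, median 0.64. Nqo1, a quinone reductase, was at 5.56, 6.11, 5.86 and 7.3 CPM in healthy mice 1 to 4 and 19.9, 11.4, 23 and 13.3 CPM in STAM-vehicle mice 1 to 4 (log2 fold change 1.45, SE 0.21, adjusted p = 0.00188). Cbr3, a carbonyl reductase, and Slc7a11, the cystine importer, lay at 0.553 to 0.725 CPM in healthy and 2.6 to 11.4 CPM in STAM-vehicle livers and at 0.166 to 0.409 CPM in healthy and 0.882 to 1.99 CPM in STAM-vehicle livers (log2 fold changes 3.11 and 2.65, adjusted p = 0.00253 and 0.00139). Of 20 p53 targets, 12 rose and 1 fell (median 0.57), and with library totals 14 rose and 0 fell, median 0.86. Eda2r, a receptor of the TNF family, was at 0.121, 0.333, 0.498 and 0.0276 CPM in healthy mice 1 to 4 and 2.6, 2.3, 3.11 and 2.66 CPM in STAM-vehicle mice 1 to 4 (log2 fold change 3.47, SE 0.44, adjusted p = 0.00105). The STAM-vehicle mice were all higher. Phlda3, an inhibitor of AKT, the death receptor Tnfrsf10b and the repair factor Gadd45a rose by 2.24, 2.0 and 1.72. Ei24 fell by 0.59 on the log2 scale. Cdkn1a, the cell cycle inhibitor p21, was at 55.5, 37.4, 104 and 21.1 CPM in healthy mice 1 to 4 and 72.8, 77.5, 64.3 and 70.9 CPM in STAM-vehicle mice 1 to 4. Its groups overlapped (log2 fold change 0.39, adjusted p = 0.47). Ei24 lost its call without healthy mouse 3 (adjusted p = 0.054).

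Cell cycle genes rose in 8 and fell in 3 of 35 (median 0.40; with library totals 16 rose and 1 fell, median 0.70). Cyclin A2, Ccna2, was at 0.604 to 0.802 CPM in healthy and 1.13 to 1.66 CPM in STAM-vehicle livers (log2 fold change 0.97, adjusted p = 0.00754), Mcm2 and Cdk1 rose by 0.85 and 0.63, and E2f1 by 0.58. E2f8, which represses E2F targets, and the thymidine kinase Tk1 fell (-1.42 and -0.91), and Pcna fell by 0.25 on the log2 scale, with 0.04 under library totals. The proliferation marker Mki67 was at 0.564, 1.46, 1.11 and 0.884 CPM in healthy mice 1 to 4 and 1.31, 0.954, 3.0 and 0.868 CPM in STAM-vehicle mice 1 to 4 and did not pass (log2 fold change 0.63, adjusted p = 0.302). Rises numbered 4 without healthy mouse 4 and STAM-vehicle mice 3 and 4. The number of falls was 1 without healthy mice 2, 3 and 4 and STAM-vehicle mice 1 and 4. Mcm2 lost its call without healthy mice 2, 3 and 4 and STAM-vehicle mice 2, 3 and 4 (adjusted p up to 0.0869), Cdk1 without healthy mice 3 and 4 and STAM-vehicle mice 2, 3 and 4 (adjusted p up to 0.0707), E2f1 without healthy mouse 4 and STAM-vehicle mice 3 and 4 (adjusted p up to 0.0638), Tk1 without healthy mice 2, 3 and 4 and STAM-vehicle mice 1 and 4 (adjusted p up to 0.0786) and Pcna without healthy mice 2, 3 and 4 and STAM-vehicle mice 1, 2 and 4 (adjusted p up to 0.129).

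Fetal and tumour-associated liver genes rose in 11 of 12, with a median of 1.33 and 0 falls. Besides H19 and Ly6d, the RNA-binding protein Igf2bp3 was at 0.443, 0.563, 0.691 and 0.414 CPM in healthy mice 1 to 4 and 2.46, 2.59, 3.44 and 3.31 CPM in STAM-vehicle mice 1 to 4 (log2 fold change 2.49, SE 0.21, adjusted p = 0.00017). Alpha-fetoprotein, Afp, was at 1.55, 1.38, 1.66 and 1.77 CPM in healthy mice 1 to 4 and 4.09, 2.79, 4.82 and 3.79 CPM in STAM-vehicle mice 1 to 4 (log2 fold change 1.28, SE 0.19, adjusted p = 0.00181). Both genes separated the groups. Krt23, a keratin of injured liver, rose by 1.6. The listed gene that did not pass was Gpc3 (0.41, adjusted p = 0.52). Circadian genes changed in both directions, 4 up and 4 down of 20 (median 0.04; with library totals 7 rose and 1 fell, median 0.33). Per3 (0.85) and Per2 (0.81) rose and Nr1d1 (-0.98), Nfil3 (-0.75), Hlf (-0.55) and Clock (-0.50) fell. The output gene Dbp ranged over 18.1 to 48.3 CPM in healthy and 28.1 to 35.2 CPM in STAM-vehicle livers (log2 fold change 0.06, adjusted p = 0.893). The hour of tissue collection is not given in the sources used here. Clock rises numbered 2 without healthy mouse 2 and STAM-vehicle mice 2 and 3 and 1 without healthy mouse 3 and STAM-vehicle mouse 1. Clock falls numbered 2 without healthy mouse 3 and STAM-vehicle mouse 4. Per3 lost its call without healthy mouse 3 and STAM-vehicle mice 1, 2 and 3 (adjusted p up to 0.0757), Nfil3 without healthy mouse 3 and STAM-vehicle mice 3 and 4 (adjusted p up to 0.0644) and Hlf without healthy mice 2, 3 and 4 and STAM-vehicle mice 1 and 4 (adjusted p up to 0.0819).

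Many abundant housekeeping genes fell by a little, and here the scaling decides. Of 77 nuclear-encoded genes of the respiratory chain and ATP synthase, 50 fell with a median of -0.31, and of 78 ribosomal protein genes 30 fell with a median of -0.23. With library totals the numbers of falls were 1 and 0 and the medians -0.02 and 0.05. The largest were in Sdhd, an anchor of succinate dehydrogenase (189.7 to 201 CPM in healthy and 115 to 132 CPM in STAM-vehicle livers; log2 fold change -0.64, adjusted p = 0.00076), and in Ndufs7 of complex I (-0.53), Atp5o of ATP synthase (-0.52) and Uqcrb of complex III (-0.47). Cox4i1, of complex IV, was at 198 to 236 CPM in healthy and 159 to 204 CPM in STAM-vehicle livers (log2 fold change -0.28, adjusted p = 0.0653). Among ribosomal genes the log2 fold changes of Rpl21 (-0.39), Rpl36 (-0.39), Rpl28 (-0.38) and Rpl7 (-0.38) were the largest, and Rplp0, often used as a reference gene, was at 237 to 277 CPM in healthy and 203 to 269.9 CPM in STAM-vehicle livers (log2 fold change -0.10, adjusted p = 0.498; 0.18 with library totals). Of the 13 genes encoded in mitochondrial DNA, edgeR called 0 (median -0.36, or -0.06 with library totals). DESeq2 called 1, limma-voom called 4 and 1 had an unadjusted p under 0.05. For respiratory chain falls, the number was 28 without healthy mouse 3 and 23 without healthy mouse 4. Ribosomal falls numbered 16 without healthy mouse 1, 17 without healthy mouse 2, 10 without healthy mouse 3, 5 without healthy mouse 4 and 14 without STAM-vehicle mouse 1. The number of falls of mitochondrially encoded genes was 5 without healthy mouse 1. Rpl36 lost its call without healthy mice 3 and 4 (adjusted p up to 0.0786).

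**Figure D4:**
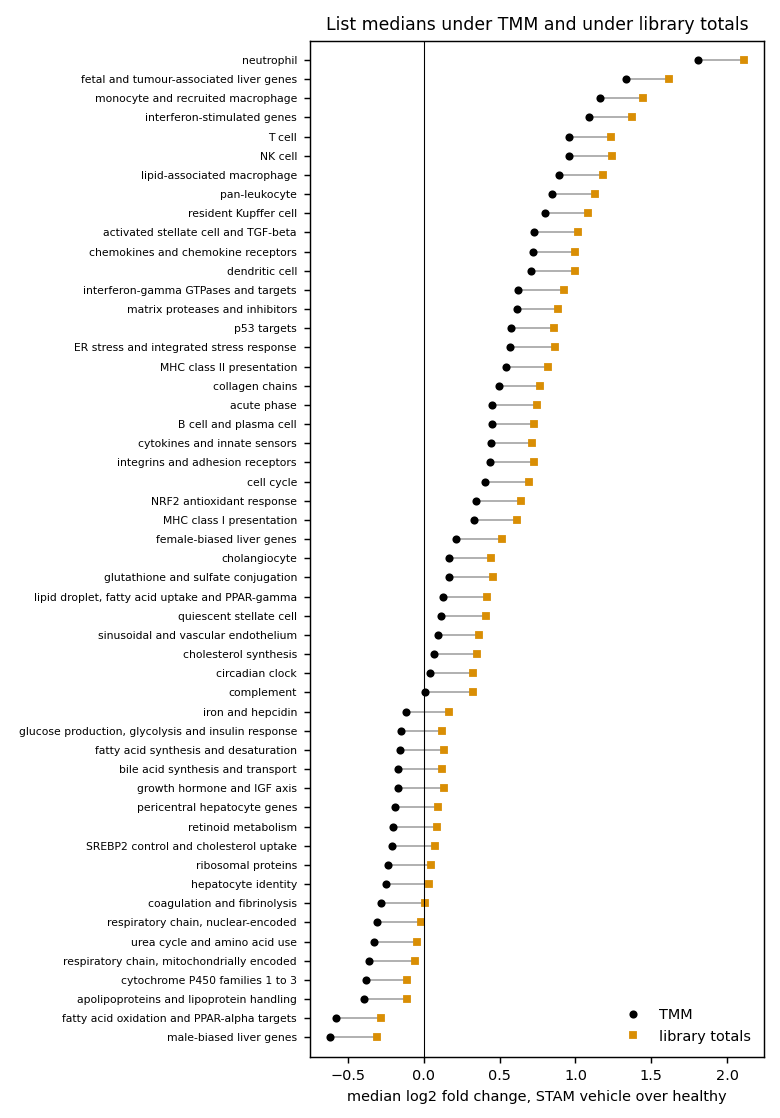
Median log2 fold change of each gene list (STAM-vehicle over healthy, x axis) under TMM scaling (black circles) and under library totals (orange squares). Every list moves right by about the same amount, the medians of immune, stress and matrix lists stay above 0 under both scalings, and ribosomal and several hepatocyte lists cross 0, while the median of fatty acid oxidation stays below 0 at -0.28.

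A defined programme that rose widely was that of interferon-stimulated genes, which respond to type I interferon through a response element in their promoters. The element searched was GAAA, any 2 bases and GAAA, and 3 promoters that hold it are shown to set a called gene beside uncalled ones. Each is the 250 bases before the RefSeq start, on GRCm38.p6, 5′ to 3′ on the gene's strand, with the element (on either strand) in capitals. The promoter of Isg15, on the minus strand at chr4:156200819-156201068, holds 3 overlapping copies between -78 and -57 from the start. That of Gbp2, on the plus strand at chr3:142620413-142620662, holds 1 between -59 and -50, read on the opposite strand. That of B2m, on the plus strand at chr2:122147437-122147686, holds 1 between -139 and -130.
Isg15: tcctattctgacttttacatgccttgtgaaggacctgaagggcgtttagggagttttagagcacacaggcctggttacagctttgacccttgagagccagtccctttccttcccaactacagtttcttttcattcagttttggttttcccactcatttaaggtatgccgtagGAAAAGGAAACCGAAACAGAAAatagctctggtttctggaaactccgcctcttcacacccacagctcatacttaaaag
Gbp2: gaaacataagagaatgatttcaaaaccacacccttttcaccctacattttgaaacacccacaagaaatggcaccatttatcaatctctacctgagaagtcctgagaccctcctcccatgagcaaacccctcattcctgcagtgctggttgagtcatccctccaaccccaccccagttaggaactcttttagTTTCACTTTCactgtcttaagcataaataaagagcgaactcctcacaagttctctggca
B2m: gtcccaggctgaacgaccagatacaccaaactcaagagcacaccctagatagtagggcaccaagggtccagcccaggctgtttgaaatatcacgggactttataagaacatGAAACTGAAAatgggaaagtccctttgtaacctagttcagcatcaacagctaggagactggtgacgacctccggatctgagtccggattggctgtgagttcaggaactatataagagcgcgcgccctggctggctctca

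Of 34 interferon-stimulated genes tested, 27 rose and 0 fell, against 12.9% of all genes that rose, with a median of 1.09. With library totals all 34 rose, and with single mice left out 25 to 30 did. Isg15, a ubiquitin-like modifier, was at 3.75, 4.88, 3.01 and 4.59 CPM in healthy mice 1 to 4 and 8.02, 7.41, 10.9 and 11.1 CPM in STAM-vehicle mice 1 to 4. All STAM-vehicle mice were above all healthy mice (log2 fold change 1.21, SE 0.19, adjusted p = 0.00239). The oligoadenylate synthetases, which sense double-stranded RNA, had the largest rises of the list: Oas3 (2.62), Oas1a (2.31), Oas1g (2.29) and Oas2 (2.29). Oas2 was at 3.73, 5.58, 3.07 and 2.68 CPM in healthy mice 1 to 4 and 17.5, 14.7, 21.9 and 19.5 CPM in STAM-vehicle mice 1 to 4. Healthy mouse 2 was the highest of its group and still below the STAM-vehicle mice (log2 fold change 2.29, SE 0.21, adjusted p = 0.000238).

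A gene was counted if any of its RefSeq promoters held the element. This was so for 3.46% of the 27025 genes with a RefSeq promoter and 3.43% of the 11319 of them that were tested. It lay in 11 of the 23 interferon-stimulated genes with a promoter (47.8%), and 10 of those 11 rose. The remaining gene, Stat2, had a log2 fold change of 0.29. By direction of call it lay in 5.46% of genes that rose and 2.17% of genes that fell. For the AP-1 element TGANTCA the shares were 7.82% of all genes with a promoter and 5.97% of tested genes. It lay in 9.16% of genes that rose and 4.71% of genes that fell. The AP-1 element lay in 6 of the 23 interferon-stimulated genes with a promoter (26.1%). Motifs were searched on both strands, overlaps were counted, and a match is a description of the letters and not a binding site.

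Genes of the interferon-gamma response rose in 9 of 19 (median 0.62), and the element lay in 9 of the 12 with a promoter (75%). The guanylate-binding proteins Gbp11 and Gbp3 (1.62 and 1.38), the T cell chemokine Cxcl10 (1.52 to 2.52 CPM in healthy and 4.18 to 6.09 CPM in STAM-vehicle livers; log2 fold change 1.4, adjusted p = 0.0011) and the checkpoint ligand Cd274 (1.38) rose. Gbp2, whose promoter is shown above, was at 4.79, 7.54, 5.0 and 5.42 CPM in healthy mice 1 to 4 and 5.47, 7.38, 10.1 and 7.57 CPM in STAM-vehicle mice 1 to 4 and did not pass (log2 fold change 0.43, adjusted p = 0.143). In class I presentation 7 of 15 rose, namely the immunoproteasome subunits Psmb8 (0.85) and Psmb9 (0.80), the transactivator Nlrc5 (0.72), the peptide transporter Tap1 (0.54) and 3 others. The light chain B2m was at 1133 to 1311 CPM in healthy and 1141 to 1379 CPM in STAM-vehicle livers (log2 fold change 0.06, adjusted p = 0.689). In class II presentation 3 of 11 rose, H2-DMb2 (1.04), the transactivator Ciita (0.92) and cathepsin S, Ctss (0.81), and the invariant chain Cd74 was at 54.7 to 84.7 CPM in healthy and 54.5 to 112 CPM in STAM-vehicle livers (log2 fold change 0.24, adjusted p = 0.425). Interferon-gamma rises numbered 14 without healthy mouse 2. Class I rises numbered 4 without healthy mice 2 and 4 and STAM-vehicle mice 2, 3 and 4. For class II rises, the number was 6 without healthy mouse 1, 1 without healthy mouse 4 and 5 without STAM-vehicle mouse 1. H2-DMb2 lost its call without healthy mice 2, 3 and 4 and STAM-vehicle mice 3 and 4 (adjusted p up to 0.0754) and Ctss without healthy mouse 4 (adjusted p = 0.0501).

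Leukocyte markers rose in shares that differed between cell types. The share ran from 14.3% of B cell and plasma cell genes to 83.3% of neutrophil genes, against 12.9% of all genes tested. Of 12 pan-leukocyte genes 8 rose (median 0.85), and their summed level was 145 to 169 CPM in healthy and 175 to 245 CPM in STAM-vehicle livers. CD45, Ptprc, was at 5.56, 7.06, 6.25 and 5.53 CPM in healthy mice 1 to 4 and 9.54, 8.85, 16.7 and 10.5 CPM in STAM-vehicle mice 1 to 4 (log2 fold change 0.90, SE 0.20, adjusted p = 0.00971). Healthy mouse 2 was the highest of its group and stayed below the lowest STAM-vehicle mouse. Rac2, Cd52, Itgb2 and Cd53 rose by 0.97, 0.95, 0.93 and 0.92. Rises numbered 3 without healthy mice 2 and 4 and STAM-vehicle mouse 4, 4 without healthy mouse 3 and 5 without STAM-vehicle mouse 3. Rac2 lost its call without healthy mice 2 and 4 and STAM-vehicle mouse 4 (adjusted p up to 0.063), Cd52 without healthy mice 2, 3 and 4 and STAM-vehicle mouse 4 (adjusted p up to 0.064) and Itgb2 without healthy mice 2, 3 and 4 and STAM-vehicle mice 3 and 4 (adjusted p up to 0.0705).

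Among macrophages, 10 of 15 Kupffer cell markers rose (median 0.80; summed level 529 to 658 CPM in healthy and 652 to 1099 CPM in STAM-vehicle livers). Clec4f, which defines Kupffer cells, was at 79.8, 63, 68.1 and 56.5 CPM in healthy mice 1 to 4 and 89.6, 92.2, 143 and 126 CPM in STAM-vehicle mice 1 to 4 (log2 fold change 0.75, adjusted p = 0.00982). The scavenger receptor Marco was at 12.8, 8.72, 8.32 and 6.13 CPM in healthy mice 1 to 4 and 20.5, 18.5, 69.7 and 29.7 CPM in STAM-vehicle mice 1 to 4 (log2 fold change 1.94, SE 0.41, adjusted p = 0.00858). Cd5l (0.98), Adgre1, the F4/80 antigen (0.97), and Folr2 (0.95) rose. Cd163, another Kupffer cell scavenger receptor, was at 18.7, 21.8, 28 and 16.1 CPM in healthy mice 1 to 4 and 15, 11.2, 18.7 and 17.3 CPM in STAM-vehicle mice 1 to 4 and did not pass (log2 fold change -0.44, adjusted p = 0.113), so that the list did not move as 1 unit.

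Of 12 markers of monocytes and recruited macrophages, 9 rose (median 1.16; summed level 45.7 to 64.7 CPM in healthy and 69.6 to 139 CPM in STAM-vehicle livers). Ccr2, the receptor that draws monocytes into tissue, was at 1.51, 1.38, 0.608 and 1.35 CPM in healthy mice 1 to 4 and 1.74, 2.63, 4.43 and 2.58 CPM in STAM-vehicle mice 1 to 4 (log2 fold change 1.22, adjusted p = 0.023). Ly6c2 (1.7), Cx3cr1 (1.69), Plac8 (1.57) and S100a6 (1.5) rose as well. Of 16 genes of lipid-associated macrophages, 9 rose (median 0.89). Trem2, a lipid receptor, was at 0.765, 0.307, 0.332 and 0.414 CPM in healthy mice 1 to 4 and 1.2, 2.41, 3.24 and 2.32 CPM in STAM-vehicle mice 1 to 4 (log2 fold change 2.3, SE 0.36, adjusted p = 0.00252). Gpnmb, a lysosomal glycoprotein, was at 1.07, 0.384, 0.415 and 0.608 CPM in healthy mice 1 to 4 and 3.55, 4.32, 11.8 and 3.65 CPM in STAM-vehicle mice 1 to 4 (log2 fold change 3.2, SE 0.48, adjusted p = 0.0021). Mmp12, macrophage elastase, was at 0.503, 0.486, 0.276 and 0.387 CPM in healthy mice 1 to 4 and 3.52, 4.82, 11 and 4.52 CPM in STAM-vehicle mice 1 to 4 (log2 fold change 3.83, SE 0.40, adjusted p = 0.000421). For Trem2, Gpnmb and Mmp12 STAM-vehicle mouse 3 was the highest and the groups did not overlap. Ccr2 lost its call without STAM-vehicle mouse 3 (adjusted p = 0.0522).

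Neutrophil genes rose in 5 of the 6 tested (median 1.80). S100a8, a subunit of calprotectin, was at 0.242, 0.23, 0.415 and 0.166 CPM in healthy mice 1 to 4 and 0.429, 0.63, 2.11 and 0.686 CPM in STAM-vehicle mice 1 to 4 (log2 fold change 1.88, adjusted p = 0.0291). S100a9 rose by 2.04, Mmp9 by 1.29 and the receptor Csf3r by 1.0. Granule genes such as Elane, Mpo, Camp and Ltf were too low to be tested. The number of rises was 3 without healthy mouse 4. S100a8 lost its call without healthy mice 2 and 4 (adjusted p up to 0.0771) and S100a9 without healthy mice 3 and 4 (adjusted p up to 0.0562).

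T cell markers rose in 9 of 21 (median 0.96; summed level 11.9 to 18.1 CPM in healthy and 22.4 to 32 CPM in STAM-vehicle livers). Cd8a, of cytotoxic cells, was at 0.242, 0.153, 0.0829 and 0.138 CPM in healthy mice 1 to 4 and 0.791, 0.612, 0.478 and 1.27 CPM in STAM-vehicle mice 1 to 4 (log2 fold change 2.28, adjusted p = 0.00425), and Cd4 and Icos rose by 1.0 and 1.22. Themis, a thymocyte signalling protein, was at 0.141, 0.384, 0.691 and 0.47 CPM in healthy mice 1 to 4 and 7.52, 2.02, 8.79 and 3.69 CPM in STAM-vehicle mice 1 to 4 (log2 fold change 3.75, adjusted p = 0.00181), without overlap. Cd3e, a defining chain of the T cell receptor complex, was at 1.09, 0.46, 0.47 and 0.332 CPM in healthy mice 1 to 4 and 1.33, 0.936, 0.901 and 1.11 CPM in STAM-vehicle mice 1 to 4 and did not pass (log2 fold change 0.82, adjusted p = 0.102). Of 6 NK cell genes 2 rose, among them Klrk1, which encodes NKG2D (0.80). Of 14 B cell and plasma cell genes 2 rose, both also known outside the lineage: Derl3, an ER degradation factor of secretory cells, was at 1.27 to 2.05 CPM in healthy and 5.45 to 10.5 CPM in STAM-vehicle livers (log2 fold change 2.41, adjusted p = 0.000365), and the adaptor Blnk, also of macrophages, rose by 1.52, whereas Cd79a, of the B cell receptor, was at 0.256 to 1.33 CPM in healthy and 0.474 to 0.908 CPM in STAM-vehicle livers (log2 fold change -0.07, adjusted p = 0.922; 0.19 with library totals). Of 10 dendritic cell genes 3 rose, Flt3 (1.33), Clec10a (1.29) and Irf8 (0.66). T cell rises numbered 15 without healthy mouse 1. NK cell rises numbered 4 without STAM-vehicle mouse 1. For B cell rises, the number was 4 without healthy mouse 1. Dendritic cell rises numbered 5 without healthy mouse 1 and 1 without healthy mouse 4 and STAM-vehicle mouse 4. Cd4 lost its call without healthy mice 2, 3 and 4 and STAM-vehicle mice 1, 2 and 4 (adjusted p up to 0.0862), Flt3 without healthy mice 2, 3 and 4 and STAM-vehicle mice 2, 3 and 4 (adjusted p up to 0.0705) and Irf8 without healthy mouse 4 and STAM-vehicle mouse 4 (adjusted p up to 0.0519).

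Chemokines and their receptors rose in 17 and fell in 2 of 42 (median 0.72; with library totals 24 rose and 0 fell, median 1.00). Ccl2, the ligand of Ccr2, was at 0.423, 0.153, 0.249 and 0.0553 CPM in healthy mice 1 to 4 and 0.746, 1.1, 1.54 and 1.03 CPM in STAM-vehicle mice 1 to 4 (log2 fold change 2.26, SE 0.43, adjusted p = 0.00549). All STAM-vehicle mice were higher. Cxcl1, a neutrophil attractant, rose by 1.7 (1.96 to 4.01 CPM in healthy and 6.91 to 13.3 CPM in STAM-vehicle livers; adjusted p = 0.00202). Ccl27a and Cxcl12 fell (-0.62 and -0.54). Cytokines and innate sensors rose in 13 of 30 (median 0.44), with the Toll-like receptors Tlr1 (1.56), Tlr7 (1.38) and Tlr2 (1.19) and the inflammasome sensor Nlrp3 (1.16) leading. Tnf was at 0.383, 0.0767, 0 and 0.194 CPM in healthy mice 1 to 4 and 0.384, 0.558, 0.901 and 0.565 CPM in STAM-vehicle mice 1 to 4, without overlap, but did not pass (log2 fold change 1.78, adjusted p = 0.0503). Integrins and adhesion receptors rose in 11 of 31 (median 0.44), among them Itgax (1.46), Vcam1 (1.07), Selplg (1.04) and Itgal (0.97). Ccl27a lost its call without healthy mice 2 and 4 and STAM-vehicle mouse 4 (adjusted p up to 0.0648) and Cxcl12 without healthy mice 2 and 4 and STAM-vehicle mouse 3 (adjusted p up to 0.086).

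Of 31 genes of activated stellate cells and TGF-beta, 20 rose and 1 fell (median 0.72). With library totals 22 rose and 0 fell, median 1.01. Col1a1, the alpha-1 chain of type I collagen, was at 8.72, 5.12, 6.25 and 5.31 CPM in healthy mice 1 to 4 and 9.76, 14.1, 15.9 and 16 CPM in STAM-vehicle mice 1 to 4. STAM-vehicle mice were all above healthy mice (log2 fold change 1.13, SE 0.20, adjusted p = 0.00418). Thbs1, which releases TGF-beta from its latent form (1.49), the microfibril protein Mfap4 (1.32) and the crosslinking enzyme Loxl2 (1.15) rose, and the matricellular Ccn1 fell (-0.53). Acta2, smooth muscle actin, the usual protein marker of stellate activation, was at 5.32, 2.2, 0.802 and 2.29 CPM in healthy mice 1 to 4 and 7.03, 4.19, 5.06 and 4.46 CPM in STAM-vehicle mice 1 to 4, with overlapping groups, and did not pass (log2 fold change 0.94, adjusted p = 0.128). The number of rises was 12 without healthy mice 2, 3 and 4 and 11 without STAM-vehicle mice 3 and 4. Ccn1 lost its call without healthy mice 1, 2 and 4 and STAM-vehicle mice 1, 2 and 3 (adjusted p up to 0.104).

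Of 33 collagen chains, 13 rose and 0 fell (median 0.50). Col5a2, a chain that nucleates type I fibrils, was at 5.2, 3.84, 3.1 and 4.06 CPM in healthy mice 1 to 4 and 8.99, 13.1, 16.5 and 13.8 CPM in STAM-vehicle mice 1 to 4 (log2 fold change 1.69, SE 0.20, adjusted p = 0.000763). No mice overlapped. Col3a1 rose by 0.92 (13.5 to 18.4 CPM in healthy and 20.3 to 35 CPM in STAM-vehicle livers; adjusted p = 0.00421), and Col6a5, a rare chain, was at 0.153 to 0.383 CPM in healthy and 0.756 to 1.47 CPM in STAM-vehicle livers (log2 fold change 2.14, adjusted p = 0.00269). Of 34 matrix proteases and inhibitors, 15 rose and 0 fell (median 0.62). Mmp13, the main interstitial collagenase of mice, was at 0.201, 0.281, 0.0829 and 0.332 CPM in healthy mice 1 to 4 and 0.723, 1.03, 2.28 and 0.888 CPM in STAM-vehicle mice 1 to 4 (log2 fold change 2.45, SE 0.46, adjusted p = 0.00549), and the aggrecanase Adamts4 was at 0.384 to 0.886 CPM in healthy and 1.71 to 4.25 CPM in STAM-vehicle livers (log2 fold change 2.15, adjusted p = 0.00308). Mmp27 rose by 1.45. Protease and inhibitor rises numbered 9 without healthy mouse 2 and 8 without healthy mice 3 and 4. Mmp27 lost its call without healthy mice 2, 3 and 4 (adjusted p up to 0.0684).

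Markers of resting stellate cells rose in 8.33% and endothelial markers in 11.1% of the genes tested. Both shares are near the background, as 12.9% of all genes tested rose and 11.1% fell. Of 12 quiescent stellate genes 1 rose, the pericyte gene Rgs5 (0.97), and 1 fell, Lrat (with library totals 2 rose and 0 fell, median 0.41). Of 27 endothelial genes 3 rose, Cd34 (1.55 to 2.72 CPM in healthy and 3.77 to 4.9 CPM in STAM-vehicle livers; log2 fold change 1.02, adjusted p = 0.00479), Lyve1 (0.52) and Plvap (0.49), and the sinusoidal scavenger receptor Stab2 was at 65.3 to 93.3 CPM in healthy and 69.6 to 88.6 CPM in STAM-vehicle livers (log2 fold change 0.04, adjusted p = 0.826). Endothelial rises numbered 13 without healthy mouse 1 and 1 without healthy mice 2 and 4 and STAM-vehicle mouse 4. Of 10 cholangiocyte genes edgeR called 0, or 3 higher with library totals, DESeq2 called 2 and 2 had an unadjusted p under 0.05, and keratin 19, Krt19, was at 1.19 to 1.87 CPM in healthy and 1.31 to 3.15 CPM in STAM-vehicle livers (log2 fold change 0.71, adjusted p = 0.0794). Lyve1 lost its call without healthy mice 2 and 4 and STAM-vehicle mouse 4 (adjusted p up to 0.0679) and Plvap without healthy mice 2, 3 and 4 and STAM-vehicle mice 2, 3 and 4 (adjusted p up to 0.0836).

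Markers of other tissues and of RNA quality were examined beside these results. Haemoglobin transcripts varied more between mice than between groups: Hbb-bs was at 168, 48.4, 46.2 and 124 CPM in healthy mice 1 to 4 and 118, 26.8, 509 and 242 CPM in STAM-vehicle mice 1 to 4 (log2 fold change 1.21, adjusted p = 0.239). Of the 5 red cell genes tested, Alas2, of haem synthesis, fell (-0.74). Adipoq, the defining adipocyte gene, was at 0 to 0.205 CPM in healthy and 0 to 0.0904 CPM in STAM-vehicle livers, and Cfd, which fat also makes at high levels, is described with complement. The pancreatic Prss2 was at 0 to 0.0276 CPM in healthy and 0 to 0.0452 CPM in STAM-vehicle livers and the muscle Acta1 at 0 CPM in all healthy and 0.0202 to 0.452 CPM in STAM-vehicle livers. Nuclear-retained RNA rose in 2 of 5 genes, Meg3 (1.3) and Neat1 (0.74), and Malat1 was at 224 to 346 CPM in healthy and 222 to 454 CPM in STAM-vehicle livers (log2 fold change 0.42, adjusted p = 0.196). The part of blood, fat or nuclear RNA in the other results was not tested. Meg3 lost its call without healthy mice 1, 2 and 3 and STAM-vehicle mice 1, 2 and 4 (adjusted p up to 0.083) and Neat1 without healthy mice 2, 3 and 4 and STAM-vehicle mice 1, 3 and 4 (adjusted p up to 0.0824).

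The STAM-vehicle mice were not alike in every programme. Relative to the healthy mean, the mean log2 CPM of the fetal list lay at 1.62 to 2.12 and that of the interferon-stimulated list at 0.92 to 1.26 over the 4 mice, and in both every STAM-vehicle mouse was above every healthy mouse. Neutrophil genes ranged over 1.06 to 2.70 and lipid-associated macrophage genes over 0.70 to 1.71, in both cases with mouse 3 the highest. The male-biased list was at -0.47, -0.47, -2.26 and -0.19 in STAM-vehicle mice 1 to 4 and at -0.51, -0.59, 0.74 and 0.37 in healthy mice 1 to 4. Only mouse 3 was below all healthy mice in it. Female-biased genes were highest in the same mouse (1.53) and next highest in healthy mouse 2 (0.83). For the Kupffer cell list healthy mouse 1 and STAM-vehicle mouse 1 were both at 0.23, and healthy mouse 1 was the highest healthy mouse for collagens, proteases, T cell and endothelial genes. Across tested genes the median SD of log2 CPM was 0.201 in healthy and 0.178 in STAM-vehicle mice.

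**Figure D5:**
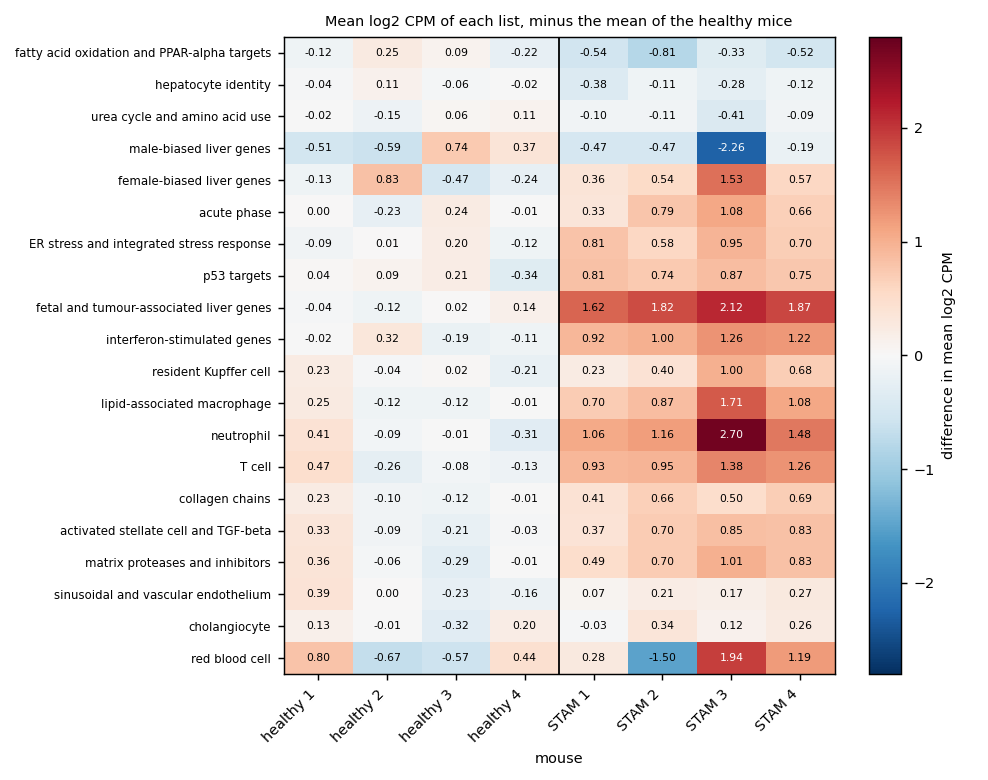
Mean log2 CPM of 20 gene lists in each of the 8 mice, minus the mean of the 4 healthy mice (numbers and colour, log2 units, red higher and blue lower). The fetal list is at 1.62 to 2.12 in all STAM-vehicle mice, STAM-vehicle mouse 3 is lowest for male-biased genes at -2.26 and highest for neutrophil genes at 2.70, and the red blood cell list varies from -1.50 to 1.94 within the STAM-vehicle group.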

How the data were processed

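Liver total RNA of the 8 mice was sequenced as stranded, poly(A)-selected libraries with 101-base paired reads. The authors aligned reads with STAR 2.5.1b to mm10 and deposited raw gene counts (whole numbers, uniquely mapped reads), 1 file a mouse. Their methods name htseq-count, the processing notes HTSeq and the file labels featureCounts. The strand setting and the annotation release are not given in the sources used here, so antisense and overlapping genes are uncertain. Of 47729 gene identifiers, 47310 matched GENCODE M21, which gave symbols and GRCm38 positions. Promoters came from RefSeq (GRCm38.p6).

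The main test was that of edgeR 4.0.16 in R 4.3.3 (TMM, filterByExpr with a minimum count of 10, glmQLFTest, Benjamini-Hochberg over 16198 genes, called at an adjusted p of at most 0.05), with limma 3.58.1 and DESeq2 1.42.0 as alternatives, and in Python 3.11.15. CPM used TMM-scaled library sizes, log2 CPM a prior count of 2, and values with ± are SD. The standard error is the log2 fold change divided by the square root of F. The main fit holds the 8 mice alone. This choice, the comparison and the 57 gene lists were made with earlier results of these data known, in which an I-BET151 library sets the spread of the joint fit, and the lists are not independent evidence. Lists are described by counts and medians, without a test.

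Genes were named by rule: the 8 largest rises and 8 largest falls among called genes without overlap and with a mean of at least 10 CPM in the higher group, an anchor gene per list, and up to 4 called members per list and direction with a mean of at least 1 CPM. A further 10 members, such as Hnf4a and Acta2, and Gpc3, Stat2 and the untested neutrophil genes were singled out after their values were seen. Some genes of the rule are not reported here. A called gene that loses its call without a mouse is given with that mouse. Library totals and a fit without mitochondrially encoded genes were added after seeing the data. Within each group, every pair of mice differed by more than sampling noise (chi-square). In simulated counts for this comparison (16008 genes) 75% of 2-fold and 99% of 4-fold changes were recovered, and 6.95% of calls were false. The simulation changed 100 genes at each fold, as many up as down and none of them rare. Its rates need not hold for the many calls and the scaling shift of these data.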

Additional observations from a re-analysis of the deposited data

Results flagged for a closer look

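In each group of 4 mice, the gap of the highest or lowest mouse to the next was divided by the range of the group, and ratios above Dixon's critical value for groups of 4 were taken as a mouse standing apart. Of 654 groups examined (named genes, list means and library measures), 31 stood out, or 4.74%, where chance gives about 1 in 20. Healthy mouse 1 was the highest of its group for Itgb2 (0.874), Nlrp3 (0.856) and Loxl2 (0.858). Healthy mouse 1 was the lowest of its group for Ghr (0.968). Healthy mouse 2 was the highest of its group for G0s2 (0.853) and Gbp3 (0.962). Healthy mouse 2 was the lowest of its group for Ndufs7 (0.879). Healthy mouse 3 was the lowest of its group for Agxt (0.939) and Ccr2 (0.878). Healthy mouse 4 was the highest of its group for Srebf1 (0.840), Atp5o (0.882) and Meg3 (0.833). STAM-vehicle mouse 1 was the highest of its group for Mfap4 (0.837). STAM-vehicle mouse 1 was the lowest of its group for Srebf1 (0.908), F2 (0.849) and Thbs1 (0.896). STAM-vehicle mouse 3 was the highest of its group for Gpnmb (0.836) and Cd63 (0.844). STAM-vehicle mouse 3 was the lowest of its group for Slco1a1 (0.967), Mup3 (0.948), Cps1 (0.888), Lipc (0.887), C8g (0.879), Malat1 (0.849) and Mup7 (0.885). STAM-vehicle mouse 4 was the lowest of its group for Derl3 (0.870). Of the gene lists, STAM-vehicle mouse 3 was lowest in the mean of male-biased genes (0.864) and of urea cycle and amino acid genes (0.949), and healthy mouse 1 was lowest for mitochondrially encoded respiratory chain genes (0.856) and highest for integrins and adhesion receptors (0.904). The percent of counts on mitochondrial genes was highest in STAM-vehicle mouse 1 (0.836, 6.44% of counts). Each number in parentheses is the gap as a share of the range.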

How the results depend on the processing

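The number of calls depended on the fit. With all 12 mice in one fit edgeR gave 1195 calls, 963 higher and 232 lower, of which 1149 were among the 3879 reported, and 11 mice without I-BET151 mouse 3 gave 3779. DESeq2 gave 4599, limma-voom with sample weights 5570 with 2753 lower, RLE normalization 3782 and no filter on low counts 3763. A test against a fold change of 1.5 gave 470 calls, 416 higher and 54 lower, and an adjusted p of at most 0.01 gave 1445, 878 higher and 567 lower. Library totals, which change only the scaling, gave 4772 higher and 271 lower. Which scaling is nearer to the true amounts was not tested. Adding sequencing lane to the 12-mouse fit left 37 calls, 33 higher and 4 lower, against 1195 without it, and lanes and groups nearly coincide. Leaving out single mice gave 2327 to 4874 calls, 1441 to 2746 higher and 886 to 2128 lower; the most came without healthy mouse 1 and the fewest without healthy mouse 4. Every call shared between a setting and the reported fit had the same direction.

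Both groups number their mice alike. Deviations of same-numbered mice from their group means correlated at -0.171 to 0.0016 (mean -0.0727, 4 pairs). Other pairs ranged from -0.1765 to 0.1348 (mean 0.0241, 12 pairs). The ranges overlap and the pairs are few, so whether the numbers pair the mice cannot be decided. With the replicate block 2244 genes were called, 1299 higher and 945 lower.

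Of the 237 named genes that were called, 196 passed with the replicate block, 126 with all 12 mice, 195 with library totals and 13 with lane as a covariate. The sign of the log2 fold change turned for these genes. With lane as a covariate in the fit of 12 mice the values were Fasn -0.080, Cyp2e1 0.16, Igf1 0.003, Cps1 0.38, Apob 0.18, Apoa1 0.073, Serpina1a 0.0009, Crp 0.041, C3 0.29, F2 0.041, Dbp -0.13, Cox4i1 0.12, mt-Co1 0.42, Rplp0 0.22, Cd74 -0.13, Stab2 -0.31, Malat1 -0.17, Hnf4a 0.48, Acta2 -0.47 and Cd163 0.21. With library totals they were Cps1 0.038, Hamp 0.19, C3 0.22, Pcna 0.041, Cox4i1 0.0046, Rplp0 0.18, Cd79a 0.19 and Hnf4a 0.26. With limma-voom they were Dbp -0.13, Cd79a 0.24 and Hnf4a 0.060, and with the replicate block Cd79a 0.068. With single mice left out the values ran for Hamp from -1.16 to 0.32 (turned by healthy 2, STAM-vehicle 1, STAM-vehicle 3, STAM-vehicle 4), for C3 from -0.16 to 0.048 (turned by healthy 2, STAM-vehicle 1), for Dbp from -0.11 to 0.37 (turned by healthy 1, healthy 3), for Cd79a from -0.33 to 0.45 (turned by healthy 1, STAM-vehicle 1, STAM-vehicle 2), for Stab2 from -0.016 to 0.17 (turned by healthy 4, STAM-vehicle 4), for Hnf4a from -0.090 to 0.062 (turned by healthy 3, STAM-vehicle 3), where the number is that of the mouse left out. Among them Igf1, Apob, Apoa1, Serpina1a, Crp, F2 and Pcna were called in the reported fit, and the others were not. The cause was not tested. At 4 mice a group, simulated 2-fold changes were recovered in 75% of cases and 4-fold changes in 99%, so 2-fold changes can be missed. The changed genes were drawn above a minimum mean count, so recovery for rarer transcripts was not tested.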
